A study of Mus musculus with 2 samples.

Results

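The miR-297, miR-466, miR-467 and miR-669 hairpins are a family of rodent-specific microRNA (miRNA) precursors, most of which lie as tandem repeats in an intron of the Polycomb gene Sfmbt2. They were described here in embryonic mouse hindbrain (strain B6NCrl, embryonic day 12.5). Members were the rows of the deposited count tables whose Ensembl identifier carries, in GENCODE M21, the symbol Mir297, Mir466, Mir467 or Mir669, alone or followed by a letter or a hyphen. This rule took 69 of 1973 miRNA gene rows, 59 of them inside Sfmbt2 on chromosome 2 and 10 on 7 other chromosomes. The study has a single group and no mutant, treated or control samples. Its 2 libraries are biological replicates by label: replicate 1 pooled hindbrains of 120 healthy embryos and replicate 2 those of 88, males and females together. The donor label is shared by both, so only the replicate number and the pool size mark them as separate samples.

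A miRNA is cut from a hairpin in a longer transcript and, loaded into an Argonaute protein, represses messenger RNAs that pair with its seed, here bases 2 to 8 from the 5′ end. Sfmbt2 is imprinted in mouse and is expressed from the paternal copy in extraembryonic tissue. Its intronic miRNA cluster is known mainly from the placenta and from early embryos. Many of its hairpins arose by duplication of a UG-rich unit, and near-identical copies follow each other along the intron.

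RefSeq sequences on GRCm38.p6 matched 9 of the 69 members by symbol, giving 8 mature miRNAs and 4 hairpins. The 8 mature sequences are shown because they make visible the UG and CA repeats of which the family is built. They run 5′ to 3′, and the capitals mark the seed.
Mir466k: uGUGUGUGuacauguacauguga
Mir466j: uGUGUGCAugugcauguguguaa
Mir466q: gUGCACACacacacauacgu
Mir466i-3p: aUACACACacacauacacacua
Mir467f: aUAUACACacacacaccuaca
Mir467g: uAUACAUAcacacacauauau
Mir467h: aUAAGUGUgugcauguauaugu
Mir669n: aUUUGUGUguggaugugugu
The 8 sequences have 8 different seeds. Among the 1738 mature sequences of the RefSeq table, 1 other has any of these seeds, mmu-miR-668-5p with that of Mir467h. No mature sequence in that table matched a member inside Sfmbt2, so a seed shared with those members could not be found. The search does not show that these seeds are rare in the family. The Mir467h sequence is in 3 miRNA hairpins of GENCODE M21, its own included, none of them of another member. The repeats also lie outside miRNA genes: the Mir467g sequence, on either strand, is inside transcripts of 4 other genes, and that of Mir466i-3p inside those of 1. All 8 belong to members outside Sfmbt2, which had no count in either library.

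The hairpin of Mir466k, at chr3:85467377-85467498 on the plus strand, is shown because, of the 4 members with a RefSeq hairpin, it has the longest unbroken UG repeat, 22 bases. Capitals mark every UGUGUG.
Mir466k hairpin: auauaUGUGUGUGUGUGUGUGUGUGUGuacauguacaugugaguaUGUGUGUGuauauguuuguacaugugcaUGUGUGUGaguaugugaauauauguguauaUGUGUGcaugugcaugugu
Of the 69 member hairpins in GENCODE M21, 64 (92.8%) contained UGUGUG, against 17.2% of all 1894 gene rows with a hairpin. The same motif read on the opposite strand, CACACA, was in 58 members (84.1%) and in 12.2% of all rows. All 69 members held at least 1 of these motifs, and 19.9% of all rows did. A match describes the letters of the hairpin and does not identify a processed product. The longest unbroken UG repeat of a member ranged from 4 to 28 bases, with a median of 8 inside Sfmbt2 and 13 elsewhere.

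Values below are read counts on the strand of the gene and counts per 1000000 assigned counts (CPM). The assigned counts came to 2764276 for replicate 1 and 3946444 for replicate 2. Where a gene had no count, up to 3 counts remain possible, equal to 1.09 CPM at the depth of replicate 1 and 0.760 CPM at that of replicate 2. Such limits, like all intervals given here, describe counting error alone. CPM is given per hairpin, summed over its arms, and is not divided by hairpin length (54 to 127 bases), since the reads come from the short mature RNAs. A comparison of levels between hairpins carries the ligation preferences of small RNA libraries. Reads that match several genomic positions, 32.7% of all reads in replicate 1 and 33.4% in replicate 2, were assigned to no gene. Each value therefore holds only reads placed at 1 position. Of the labelled tissue's markers, the Hox cluster miRNAs Mir10a and Mir10b, which mark hindbrain and spinal cord, summed to 42345 and 40411 CPM. Of 7 neural marker genes with a row, 4 were detected, and the list summed to 4962 and 5369 CPM. Mir9-2, Mir124a-1 and Mir124a-3 were not detected. They are numbered copies, and reads that match several copies are in no gene. Their counts therefore need not give the levels of these miRNAs.

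The hindbrain libraries contained miRNAs of this family from Sfmbt2 and no reads assigned to the loci elsewhere. The 59 members inside Sfmbt2 held 15728 counts in replicate 1, or 0.569% of the assigned counts (exact Clopper-Pearson 95% interval 0.560% to 0.578%). In replicate 2 they held 21250 counts, or 0.538% (0.531% to 0.546%), giving a mean of 0.554% ± 0.0216 (SD, n = 2). The intervals do not overlap, and the share in replicate 2 was 0.946 times that in replicate 1. The 10 members elsewhere had 0 counts in both libraries. With 3 counts taken as the limit for a sum of 0, the sum inside Sfmbt2 was at least 5243-fold higher in replicate 1. In replicate 2 it was at least 7083-fold higher. That bound is larger because the library is deeper, and the share of counts was lower there. Both folds compare sums over 59 and 10 hairpins and not levels per hairpin, and 34 of the 59 were also at 0 in both libraries. The sums hold only reads placed at 1 position. All counts of the family lay on the strand of the gene, and the opposite strand had 0 at the 69 members in each library. Over all genes, 2.38% and 2.35% of the counts on both strands were on the opposite strand. The Dlk1-Dio3 region of chromosome 12 held 33695 of these 67385 counts in replicate 1 and 48219 of 94907 in replicate 2. Mir10a and Mir10b also had 0 there, so this is not particular to the family.

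A few hairpins gave most of the counts. With a minimum of 10 counts in both libraries, 10 of 69 members (14.5%) were detected, and 18.8% of all 1973 gene rows were, so the share of members was not above that of the tables as a whole. Inside Sfmbt2, 10 of 59 (16.9%) were detected. A further 15 members had between 1 and 9 counts in a library without reaching the minimum, and 44 members had none in either. In all, 25 of 69 members (36.2%) had a count in either library, against 37.3% of all gene rows. Just inside the minimum lay Mir297a-2, with 11 counts in replicate 1 and 24 in replicate 2, and Mir669h, with 17 and 30. Just outside lay Mir466b-3, with 7 and 9 counts, and Mir466h, with 5 and 4.

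The 4 subfamilies contributed very unequally. The miR-467 hairpins held 80.3% of the family's counts in replicate 1 and 81.4% in replicate 2, with 3 of 17 members detected. Their sum was 4569 CPM in the first library and 4383 CPM in the second. The miR-669 hairpins came next, at 1082 and 957 CPM, with 5 of 21 detected. The miR-466 hairpins, the most numerous subfamily, reached only 34.7 and 37.0 CPM, and of 25 members Mir466n alone was detected. The miR-297 hairpins had 4.34 and 7.35 CPM, and 1 of 6 was detected. The ranges of the 4 subfamilies over the libraries did not overlap. These sums hold only reads placed at 1 position. In 20 members inside Sfmbt2, Mir466b and Mir467a copies among them, every run of 20 bases was also in another hairpin. The sums therefore need not rank the miRNAs of the subfamilies. No test over 2 libraries was made, since a two-sided exact sign-flip test could not give a p under 0.5.

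**Figure D1:**
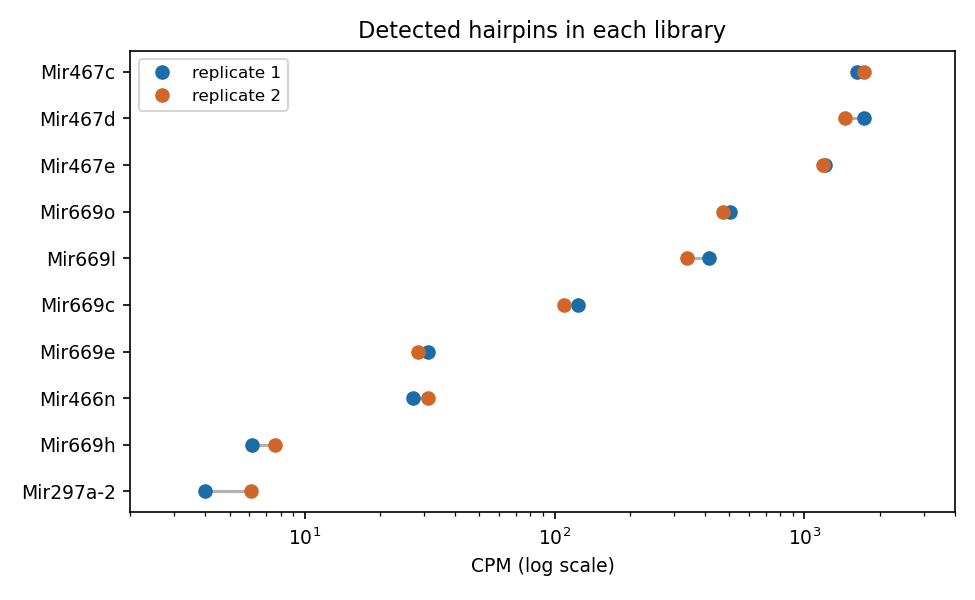
CPM (log axis) of each of the 10 detected hairpins in replicate 1 (blue) and replicate 2 (orange), joined by a line, in order of mean CPM. The 3 miR-467 hairpins lie above 1000 CPM, and the libraries differ far less than the hairpins do.

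Mir467c, Mir467d and Mir467e were the abundant members, and the other 7 detected hairpins were at or below 502 CPM in each library. Mir467c (ENSMUSG00000077049.2, chr2:10473931-10474027) had 1631 CPM in replicate 1 and 1737 CPM in the other library. Mir467d (ENSMUSG00000077021.2, chr2:10507630-10507714) had 1726 and 1452 CPM, so the order of these hairpins differed between the libraries and their ranges overlapped. Mir467e (ENSMUSG00000076948.2, chr2:10505721-10505807) had 1210 and 1193 CPM and was below both in each library. By mean CPM these ranked 81, 82 and 100 among the 1973 gene rows. They were 3 of the 105 rows (5.32%) with a mean of at least 1000 CPM. Together they held 80.3% of the family's counts in replicate 1 and 81.4% in replicate 2. For scale, the highest neural markers were Mir137, with 3263 and 3343 CPM, and Mir153, with 1316 and 1614 CPM and rank 88.

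The miR-669 hairpins formed the middle of the range. Mir669o (chr2:10514300-10514395) had 502 CPM in replicate 1 and 472 in replicate 2. Mir669l (chr2:10468971-10469068) had 416 and 339 CPM, and Mir669c (chr2:10509296-10509404) had 124 and 109 CPM. These 3 hairpins kept the same order in both libraries, with ranges that did not overlap. Mir669e (chr2:10467495-10467613) had 31.1 and 28.4 CPM, next to Mir466n (chr2:10513741-10513834) at 27.1 and 31.2 CPM. The ranges of Mir669e and Mir466n overlapped. At the low end, Mir669h (chr2:10518155-10518279) had 6.15 and 7.60 CPM, and Mir297a-2 (chr2:10472254-10472343) had 3.98 and 6.08 CPM. Of the 9 pairs that follow each other in this ranking, 7 had ranges over the libraries that were apart and 2 overlapped.

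**Figure D2:**
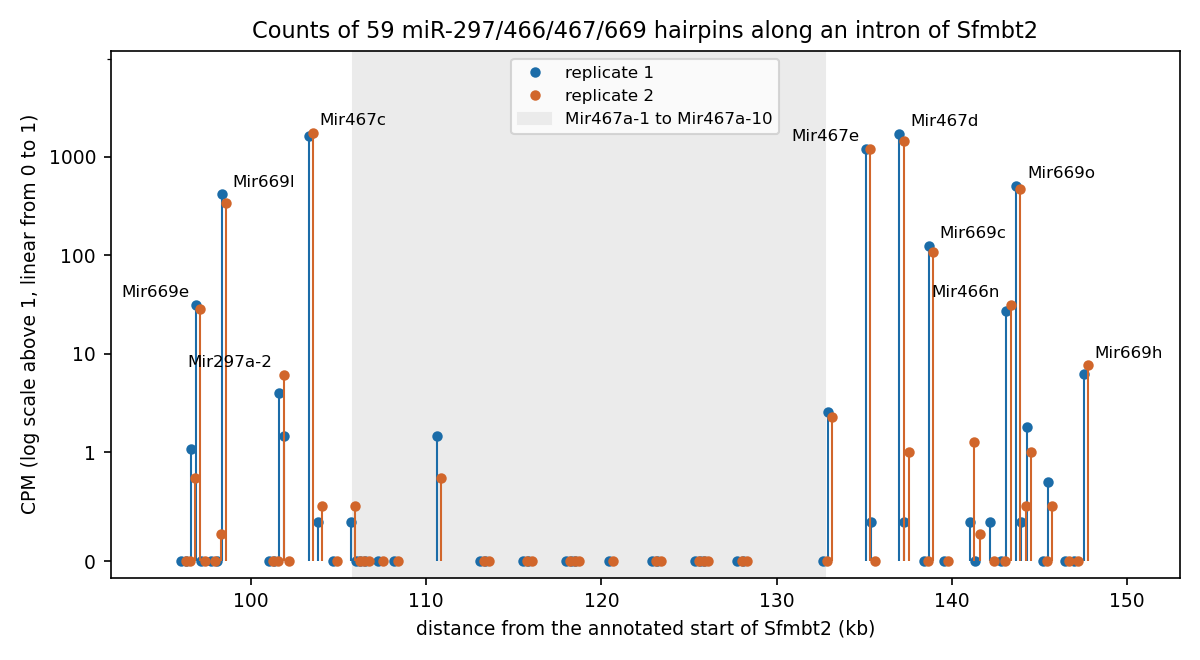
CPM of the 59 members inside Sfmbt2 in replicate 1 (blue) and replicate 2 (orange) against distance from the annotated start of Sfmbt2; the axis is linear from 0 to 1 CPM and logarithmic above. The 10 detected hairpins, named in the plot, stand on either side of the grey stretch from Mir467a-1 to Mir467a-10, where 21 of 23 members are at 0.

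All 59 members inside Sfmbt2 lay in the same intron, on the strand of the gene. The intron runs over 62.5 kb (chr2:10461473-10523944, GRCm38), between exons 10 and 11 of the coding transcript ENSMUST00000041105.6. From Mir466m at its 5′ end to Mir669h at its 3′ end the members covered 51.6 kb, with a median of 314 bases between neighbours. In the middle of this stretch, Mir467a copies and Mir467b recur at a regular step, with 9 of 10 distances between successive starts from 2413 to 2470 bases. The 23 members in the 27.0 kb from Mir467a-1 to Mir467a-10 included no detected hairpin and held 5 counts in each library. These were 4 and 3 counts of Mir467b and 1 and 2 counts of Mir467a-1. Of the 20-base windows of these 23 hairpins, a median of 0% occurred in no other miRNA hairpin, against 39.2% for the members on the 5′ side and 37.9% for those on the 3′ side. Reads from a hairpin with no window of its own may match several positions and be in no gene, so the low counts of this stretch do not show that it was silent. The 15 members on the 5′ side included 4 detected hairpins and held 36.6% of the family's counts in replicate 1 and 39.2% in replicate 2. The 21 members on the 3′ side included 6 detected hairpins and held 63.3% and 60.8%. This division was made after the values were seen and was not tested.

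Counts of reads placed at 1 position differed widely between some adjacent hairpins. The 4 pairs given here were chosen from 58 for their contrast, after the values were seen. Mir467e and Mir466p are 198 bases apart, and Mir466p had 1 count in replicate 1 and 0 in replicate 2. Mir467d is followed after 203 bases by Mir466, with 1 and 4 counts. Mir669l, at 1150 and 1337 counts, is preceded within 202 bases by Mir466f-2, with 0 and 1. Mir669o, at 1389 and 1863 counts, is followed after 199 bases by Mir466g, with 1 and 2. In each of these pairs a miR-467 or miR-669 hairpin had over 1000 counts in both libraries while the adjacent miR-466 hairpin had at most 4. The percent of 20-base windows found in no other hairpin was 37.1% for Mir466p and 57.4% for Mir467e, and 25.3% for Mir466f-2 and 50.6% for Mir669l. It was 37.0% for Mir466 and 37.9% for Mir467d, and 100% for Mir466g and 50.6% for Mir669o. Mir466g thus had the lower counts of its pair with the higher percent of windows of its own. The part of shared sequence in these contrasts was not tested. Counts of reads placed at 1 position need not give the relative levels of the miRNAs in such pairs.

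The other miRNA genes annotated in the intron had few counts. Sfmbt2 holds 48 further miRNA gene rows that carry only Gm symbols and lie outside the rule. None was detected, and 6 had a count, summing to 9 counts in replicate 1 and 13 in replicate 2. Among members inside Sfmbt2, 91.5% of hairpins contained UGUGUG and 91.5% CACACA. Of the 48 hairpins with Gm symbols, 44 (91.7%) contained UGUGUG and 33 (68.8%) CACACA. The highest by mean CPM was Gm22925, with 3 counts in each library, followed by Gm22072, with 2 and 4. A run of 20 bases shared with another hairpin was found in 46 of these 48 hairpins (95.8%), so reads from them may match several positions and be in no gene.

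**Figure D3:**
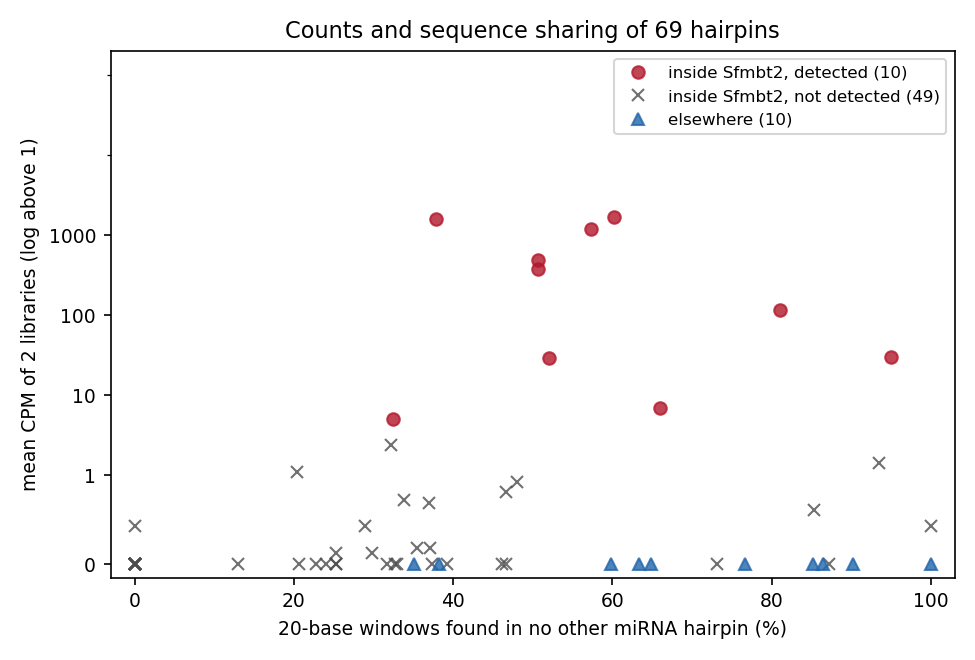
Mean CPM of each of the 69 members (linear from 0 to 1, logarithmic above) against the percent of the 20-base windows of its hairpin that occur in no other miRNA hairpin of GENCODE M21. Every detected hairpin (red) has at least 32.4% of windows of its own, while hairpins inside Sfmbt2 without any (grey crosses at 0%) and all 10 members elsewhere (blue) are at or near 0 CPM.

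Sequence shared between copies bears on these counts, because a read that matches several positions is in no gene. A run of 20 bases shared with another miRNA hairpin was found in 67 of 69 members (97.1%), against 48.7% of the 1894 gene rows with a hairpin. In the median member, 32.9% of the 20-base windows occurred in no other hairpin. Inside Sfmbt2, 20 members had no window of their own. None of them was detected, and 1 of them had a count, Mir467a-1 with 1 and 2. Of the 39 with at least 1 window of their own, 10 were detected and 24 had a count. A hairpin with an identical twin elsewhere was the case for 15 members, in 5 sets, and all 15 had 0 counts. The largest set held 6 of the Mir467a copies. The values for such hairpins do not measure how much of their miRNA the tissue held.

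Windows of its own did not go with counts in every hairpin. The windows cover the whole hairpin, and no RefSeq mature sequence matched a member inside Sfmbt2. A high percent therefore does not show that the mature miRNA lies in no other hairpin. The detected members had between 32.4% (Mir297a-2) and 95% (Mir669e) of their windows to themselves, with a median of 54.7%. Mir467d, among the most abundant, had 37.9%, Mir467e had 57.4% and Mir467c had 60.3%. In contrast, Mir466g shared no window with another hairpin and had 1 count in replicate 1 and 2 in replicate 2. Mir669b, with 87.2% of windows of its own, and Mir669i, with 73.1%, had 0 counts in both libraries. Mir669i and Mir669b were named after their values were seen. Members inside Sfmbt2 with at least 50% of windows of their own numbered 13, of which 8 were detected and 2 had no count. Copies outside miRNA hairpins were searched only in transcripts of other genes. Of the windows of Mir467c 98.7% were in none of those transcripts, and of Mir467d 92.4%.

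The 10 loci outside Sfmbt2 gave no counts. Their hairpins had between 35.1% and 100% of windows found in no other miRNA hairpin, with a median of 70.8%. Counting also copies in transcripts of other genes, the median was 62.8%, and the lowest values were 26.7% for Mir467g, 35.1% for Mir297-1 and 38.2% for Mir467h. The mature sequence of Mir467h is in 3 miRNA hairpins, so its reads may match several positions. Copies in the genome at large were not counted, and the part of any copies in these zeros was not tested. Mir669n, at chr3:115979902-115979955, shared no window with another hairpin and had 0 counts. Mir466q (chr3:28419943-28420018) lies in an intron of Tnik, a kinase gene, on the strand of that gene. Another 5 lie in introns on the opposite strand, Mir467f in Fxr2, Mir466i in Cdk13, Mir466k in Gm37240, Mir669n in Slc30a7 and Mir467g in Grk4. The remaining 4, Mir466j, Mir466f-4, Mir297-1 and Mir467h, lie in no annotated gene. For each of the 10, the limit of 3 counts equals 1.09 and 0.760 CPM of reads placed at 1 position in replicates 1 and 2.

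**Figure D4:**
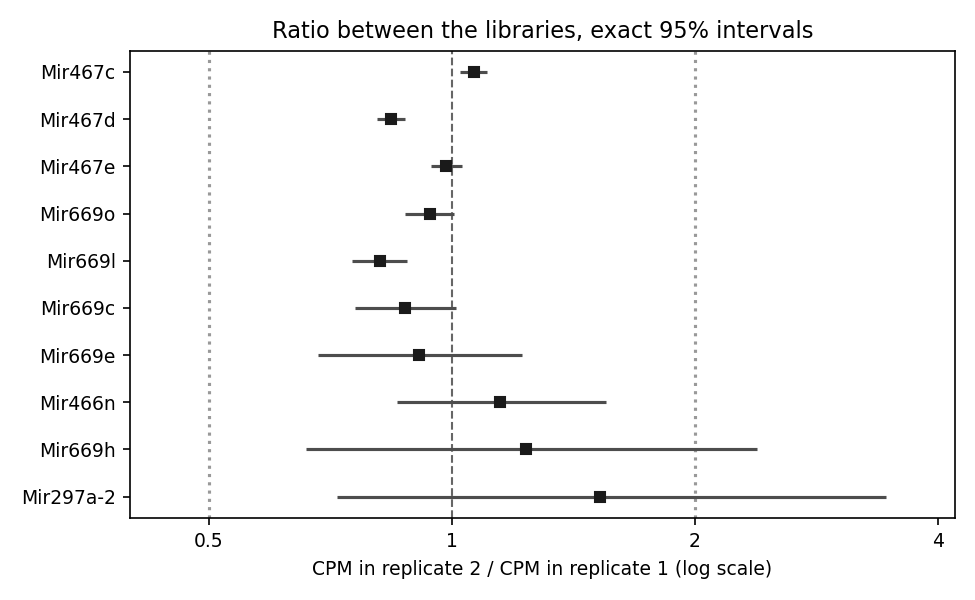
Ratio of CPM in replicate 2 to CPM in replicate 1 (log axis) for the 10 detected hairpins, with exact 95% intervals from their counts; the dashed line marks equal CPM and the dotted lines 2-fold in either direction. All 10 ratios lie between 0.814 and 1.53, and the intervals of the rarest hairpins, Mir669h and Mir297a-2, are the widest.

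The replicates had similar levels of this family. In a two-sided exact binomial test of each gene's counts, Benjamini-Hochberg adjusted over the 393 genes that averaged 10 counts or more, 0 of the 10 detected members passed both an adjusted p of 0.05 and a 2-fold difference. Of all 393 genes, 14 (3.56%) passed both. An unadjusted p under 0.05 was found for 3 members and for 56.0% of all genes tested. Counting noise is the only error in this test, which compares these libraries and not conditions. The largest ratio was that of Mir297a-2, at 1.53 (exact 95% interval 0.721 to 3.46), which includes equal levels. The median absolute log2 ratio was 0.19 over the 10 members and 0.24 over all genes tested.

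Without a minimum fold, 3 members differed by more than counting noise, in both directions. Mir467d was 1.19-fold higher in replicate 1 (95% interval 1.14 to 1.24, adjusted exact p = 8.73e-18), and Mir669l was 1.23-fold higher in replicate 1 (1.13 to 1.33, adjusted exact p = 1.30e-06). Mir467c was 1.07-fold higher in replicate 2 (1.03 to 1.11, adjusted exact p = 0.00242). At any fold, 26.5% of all genes tested were called higher in replicate 1 and 25.2% higher in replicate 2, so 2 and 1 of 10 members is not more than the background. As a share of the family's counts, Mir467d went from 30.3% in replicate 1 to 27.0% in replicate 2, Mir467c from 28.7% to 32.3% and Mir467e from 21.3% to 22.2%. The scarce members could have differed by more without being called. The interval of Mir669h reached from 0.660 to 2.39.

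Other miRNA clusters give a scale for the family. In the imprinted Dlk1-Dio3 region, between the start of Meg3 and the end of Mirg on chromosome 12, 44 of 58 miRNA gene rows (75.9%) were detected. Of all gene rows in the tables, 18.8% were. The 58 rows of the region together held 6.31% and 6.74% of the counts. The median level of the detected hairpins was 418 CPM there and 247 CPM in the Sfmbt2 family. The miR-290 cluster, known from embryonic stem cells and early trophoblast, summed to 66.9 CPM in replicate 1 and 50.2 in replicate 2. Of its 6 genes with a row 3 were detected, and Mir290a was at 0. The family's sum over 69 rows exceeded that over the 6 rows of miR-290 in each library, at 5690 and 5385 CPM. Mir292a of that cluster had no row, so these sums are of sets unlike in size. Markers of other cell types were present, with erythroid miRNAs at 298 and 355 CPM, the leukocyte Mir223 at 293 and 225 CPM and the endothelial Mir126a at 25987 and 23442 CPM. The skeletal muscle markers were at 152 and 592 CPM and the epithelial markers at 5147 and 2245 CPM. Their part in the counts of the family was not tested, and fewer cells of a type cannot be told apart from less RNA per cell in such bulk tissue.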

How the data were processed

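Each library has a table of raw read counts per miRNA gene, deposited by the authors and, according to the text files beside them, derived from mm10 alignments and GENCODE M4. The aligner, the counter and their settings are not given in the sources used. The tables have no column names. The second value column was read as the strand of the gene, because it holds nearly all counts. Rows of unmapped, multiply mapped (32.7% and 33.4% of reads) and unassigned reads stayed out of totals. Symbols, for 1894 of 1973 rows, came from Ensembl identifiers matched without versions to GENCODE M21, whose GRCm38 coordinates are those of mm10. Of 81 M21 genes that the rule names, 69 had a row. The other 12, all inside Sfmbt2, were not analysed here.

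CPM was computed over all gene rows. Replicates were compared gene by gene with a two-sided exact binomial test, Benjamini-Hochberg adjusted over all genes averaging 10 counts or more, and 0.5 was added to each count in the log2 ratio. Libraries are labelled biological replicates of pooled embryos. Hairpins came from the M21 transcript sequences, and 20-base windows were compared with all M21 miRNA hairpins on the same strand and with 139558 transcripts of other genes on both strands. Copies in the genome at large were not counted, as no genome sequence was used here. Named hairpins are the 12 highest by mean CPM, which takes in all 10 detected, the members nearest the detection limit, those sharing a printed sequence set, and markers; others were named after their values were seen, such as the neighbours along the intron. Members and lists were chosen with earlier results of these data known. Alternatives used TMM of edgeR 4.0.16 and size factors of DESeq2 1.42.0 in R 4.3.3. Other steps used SciPy 1.17.1, pandas 2.3.3 and numpy 2.4.6 in Python 3.11.15, with figures from matplotlib 3.10.9. The test was checked on simulated data.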

Additional observations from a re-analysis of the deposited data

How the results depend on the processing

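The number of detected members was 20 where 1 count per library was enough, 11 with a minimum of 5 and 8 with 20, and 10 with both strands counted together. It was 10 in either library by itself. No detected member was left when hairpins that share a run of 20 bases were removed, so the count was then 0 and the family's share of counts, all of it inside Sfmbt2, was 4.34e-05%. By construction that setting keeps 2 of 69 members, Mir466g and Mir669n. The share was 0.640% without the most abundant gene of the tables, 0.385% without Mir467c, 0.541% with both strands, and 0.538% to 0.569% leaving out each replicate. The ratio of the summed counts of Sfmbt2 members to those elsewhere averaged at least 6163 ± 1302 (SD, n = 2). Its divisor was the limit of 3 counts in both libraries, so this SD follows their depth and does not measure a spread of the ratio. The ratio was at least 4269 without Mir467c and 5243 to 7083 leaving out each replicate. It was not computed without the hairpins that share sequence, since both sums were then at or under the floor. Without a minimum fold, 3 members were called between the replicates. The count was 0 under the other minimum counts, added counts, scalings and both strands. An alternative chosen after seeing the data found the same directions, 2 higher in replicate 1 and 1 in replicate 2, with TMM and with DESeq2 size factors. No paired analysis was possible because the series has 1 group. Depth limits the members with few counts, whose ratios have wide intervals, and hairpins with identical copies cannot be measured by reads placed at 1 position.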
